A study of Caenorhabditis elegans with 6 samples.

Results

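Body wall muscle moves the worm, and its contractile units are built from a known set of proteins. The genes described here encode the sarcomere of body wall muscle in Caenorhabditis elegans, with the dense bodies and M-lines that tie it to the cell membrane. They were taken from a list of 38 genes, and a gene was included when a probe set of the array named that gene alone. In all, 35 of the 38 had such a probe set, among 17118 genes measured. act-1 and act-2 were measured only on probe sets shared with other actin genes, and the probe set for the dystrophin gene dys-1 carries 2 gene entries of the same symbol, so these 3 are given apart.

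Expression was compared between active larvae of the third stage (L3) and larvae in L3 lethargus, a quiescent, sleep-like state before the molt in which movement and feeding stop. All animals were of the wild-type strain N2, variety Bristol, with no allele, transgene or drug in either group. They were hatched without food, fed the bacterial strain DA837 at 20 °C, and picked by hand 32 hours (L3) or 37 hours (lethargus) after feeding began. Each of the 3 samples per stage pooled 200 whole animals, so age, molt phase and behaviour differ together between the stages. The labels number the pools and do not say whether they were grown on separate days, so p-values measure the spread between these pools.

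In the worm sarcomere, thick filaments of myosin and paramyosin slide past thin filaments of actin, tropomyosin and troponin. Thin filaments are anchored at dense bodies, the counterpart of vertebrate Z-disks, and thick filaments at M-lines. Both structures are rooted in the membrane through integrin. Through the basement membrane they pass force to the epidermis and on to the cuticle, which is replaced at the molt. The pharynx, the feeding organ, has muscle of its own with its own myosin and troponin genes.

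No sarcomere gene was found to differ between active L3 larvae and larvae in lethargus. On the brightest probe set of each gene, used here, the data bound a change within 2-fold, while other probe sets spread more. Of 35 genes, 0 were called higher and 0 lower, where a call is an adjusted p of 0.05 or less from limma with Benjamini-Hochberg adjustment over 22548 probe sets. Over all probe sets, 0.754% were called higher and 0.213% lower, so a count of 0 among 35 genes lies near the background share and shows little by itself. At an unadjusted p under 0.05 the count was also 0 of 35, against 10.6% of all probe sets. More is shown by the 95% interval of each change, given here as the log2 difference of lethargus minus L3. For 35 of 35 genes that interval lay within a 2-fold change in either direction, against 88.3% of all probe sets. For 34 of 35 it lay within a 1.5-fold change, against 59.6% of all probe sets.

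Changes ran from -0.16 for unc-98 to 0.21 for unc-96, which are 0.895-fold and 1.15-fold. The median change was 0.02, with 23 genes positive and 12 negative, against a median of 0.02 and 53.6% positive over all probe sets. The median size of change, sign left aside, was 0.041 among these genes and 0.131 over all probe sets. It was 0.122 among probe sets at least as bright as the dimmest of these genes. Among those at least as bright as the median gene of the list it was 0.067. On all 6 arrays a gene spanned from 0.127 (unc-112) to 0.917 (pat-4) on the log2 scale. The median span was 0.328, against 0.559 over all probe sets and 0.494 among those at least as bright as the dimmest gene.

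**Figure D1:**
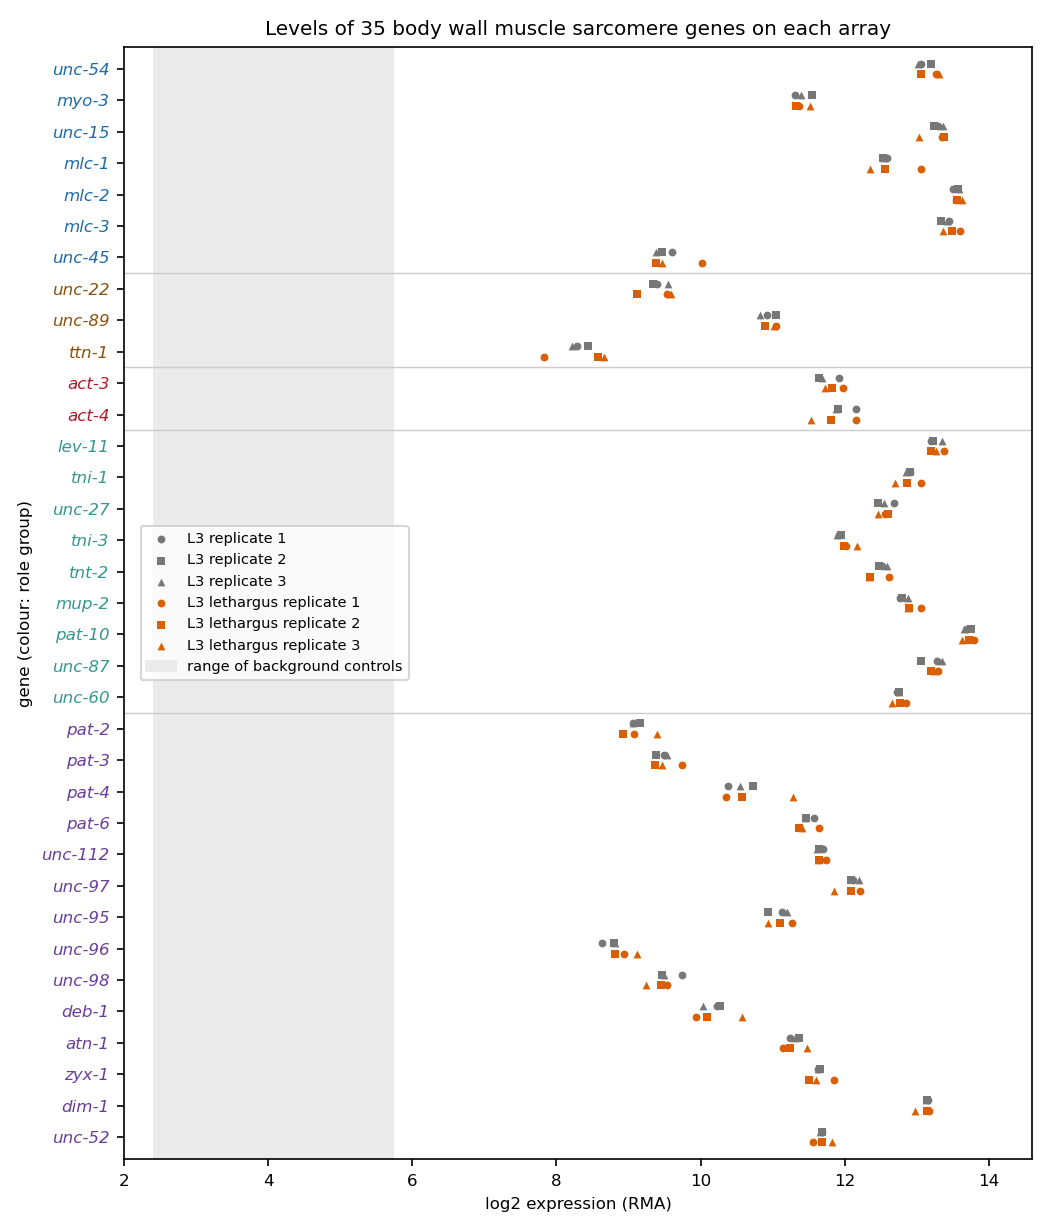
Log2 expression of the 35 genes on each of 6 arrays; grey symbols are L3 and orange symbols lethargus, with a circle, square and triangle for replicates 1, 2 and 3. Name colours and grey lines mark the role groups, from the top: thick filament, titin-like proteins, actins, thin filament regulators, and dense body and M-line. No gene spans more than 0.917 over the 6 arrays, and all lie above the background controls (2.42 to 5.73).

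None of the 7 thick filament genes was called. unc-54 and myo-3 encode the major and minor myosin heavy chains of body wall muscle, unc-15 encodes paramyosin, the core of the filament, and unc-45 a chaperone that folds myosin. unc-54 read 13.05, 13.20 and 13.02 on the L3 arrays and 13.27, 13.06 and 13.31 in lethargus, a change of 0.12 with a 95% interval from -0.18 to 0.42. myo-3 read 11.31, 11.55 and 11.40 in L3 and 11.36, 11.32 and 11.53 in lethargus, a change of -0.02 (interval -0.32 to 0.28). The stages overlapped for both myosins. Paramyosin had a change of -0.05 with an interval from -0.37 to 0.27. unc-45 read 9.60, 9.46 and 9.38 in L3 and 10.02, 9.38 and 9.47 in lethargus, a change of 0.14 (interval -0.30 to 0.58), with lethargus replicate 1 above all other arrays.

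The myosin light chains gave the narrowest and the widest interval of this group. mlc-1 and mlc-2 are neighbouring genes for the regulatory light chain, and mlc-3 encodes the essential light chain. mlc-2 lay at 13.51, 13.58 and 13.58 in L3 and at 13.55, 13.56 and 13.63 in lethargus, a change of 0.03 (SE 0.11). Its interval, from -0.23 to 0.29, was the narrowest of all 35 genes. mlc-1 lay at 12.58, 12.53 and 12.54 in L3 and at 13.06, 12.56 and 12.35 in lethargus, a change of 0.11 (interval -0.34 to 0.55). The lethargus arrays of mlc-1 fell on both sides of the L3 arrays, with replicate 1 highest and replicate 3 lowest. mlc-3 had a change of 0.08. A probe set shared by mlc-1 and mlc-2 had a change of -0.003 (interval -0.30 to 0.29), and probe sets of such close copies can read each other's transcripts.

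The giant proteins of the titin family also showed no call. unc-22 encodes twitchin and unc-89 the worm obscurin of the M-line, both of which carry kinase domains, and ttn-1 a titin-like protein. unc-89 read 10.92, 11.05 and 10.83 in L3 and 11.05, 10.90 and 11.02 in lethargus, a change of 0.06 with an interval from -0.23 to 0.35. ttn-1 read 8.29, 8.43 and 8.22 in L3 and 7.83, 8.58 and 8.66 in lethargus, a change of 0.04 with an interval from -0.49 to 0.57. Its lethargus replicate 1 lay below every L3 array and the other lethargus arrays above them, which makes this the widest interval of the group. Twitchin had a change of -0.01 (interval -0.39 to 0.36).

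Actin was read by several overlapping probe sets, and none was called. act-1, act-2 and act-3 are neighbouring genes and act-4 lies elsewhere, and all 4 are muscle actins. act-3 read 11.92, 11.64 and 11.68 in L3 and 11.98, 11.82 and 11.72 in lethargus, a change of 0.09 (interval -0.23 to 0.41). act-4 read 12.16, 11.91 and 11.88 in L3 and 12.16, 11.81 and 11.53 in lethargus, a change of -0.15 (interval -0.58 to 0.28). For both genes the stages overlapped and replicate 1 was the highest array of each stage. The brighter of the 2 probe sets shared by act-1, act-2 and act-3 read 13.67, 13.70 and 13.76 in L3 and 13.69, 13.59 and 13.63 in lethargus, a change of -0.07 (interval -0.34 to 0.19). A probe set shared by all 4 actins had a change of -0.10 (interval -0.40 to 0.21). Actin probe sets at the 3' end, the middle and the 5' end of the transcript, placed on the array as controls, differed between stages by -0.04, -0.02 and -0.15.

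The regulators of the thin filament all had narrow intervals, with a margin on either side of the change from 0.271 to 0.313. lev-11 encodes tropomyosin, pat-10 troponin C, tni-1, unc-27 and tni-3 troponin I, and mup-2 and tnt-2 troponin T. Of these, pat-10 read 13.70, 13.75 and 13.65 in L3 and 13.80, 13.73 and 13.63 in lethargus, a change of 0.02 (interval -0.25 to 0.29). tni-1 read 12.91, 12.90 and 12.85 in L3 and 13.06, 12.87 and 12.69 in lethargus, a change of -0.01 (interval -0.33 to 0.30). The lethargus arrays enclosed the L3 arrays for both genes. Tropomyosin had a change of 0.03 and unc-27 one of -0.02. unc-87, a calponin-like protein that bundles actin, and unc-60, which encodes actin depolymerizing factor/cofilin proteins, both had 0.02.

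In 2 of 35 genes the arrays of the stages did not overlap, against 14.4% of all probe sets. Both were higher in each lethargus array than in each L3 array, as were 7.81% of all probe sets, and both are troponin genes. tni-3 read 11.92, 11.95 and 11.90 in L3 and 12.02, 11.99 and 12.18 in lethargus. Its change was 0.14 (SE 0.12, adjusted p 0.844 from limma), which on the fold scale is an interval from 0.911- to 1.33-fold. mup-2 read 12.76, 12.80 and 12.87 in L3 and 13.06, 12.89 and 12.87 in lethargus. The gap was very narrow: the highest L3 value was 12.8736 and the lowest lethargus value 12.8746. The change of mup-2 was 0.13 (SE 0.12, adjusted p 0.866 from limma), or 1.09-fold, with an interval from 0.902- to 1.33-fold. The other probe set of tni-3 had a change of -0.04, and tnt-2, a troponin T gene like mup-2, had -0.10.

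**Figure D2:**
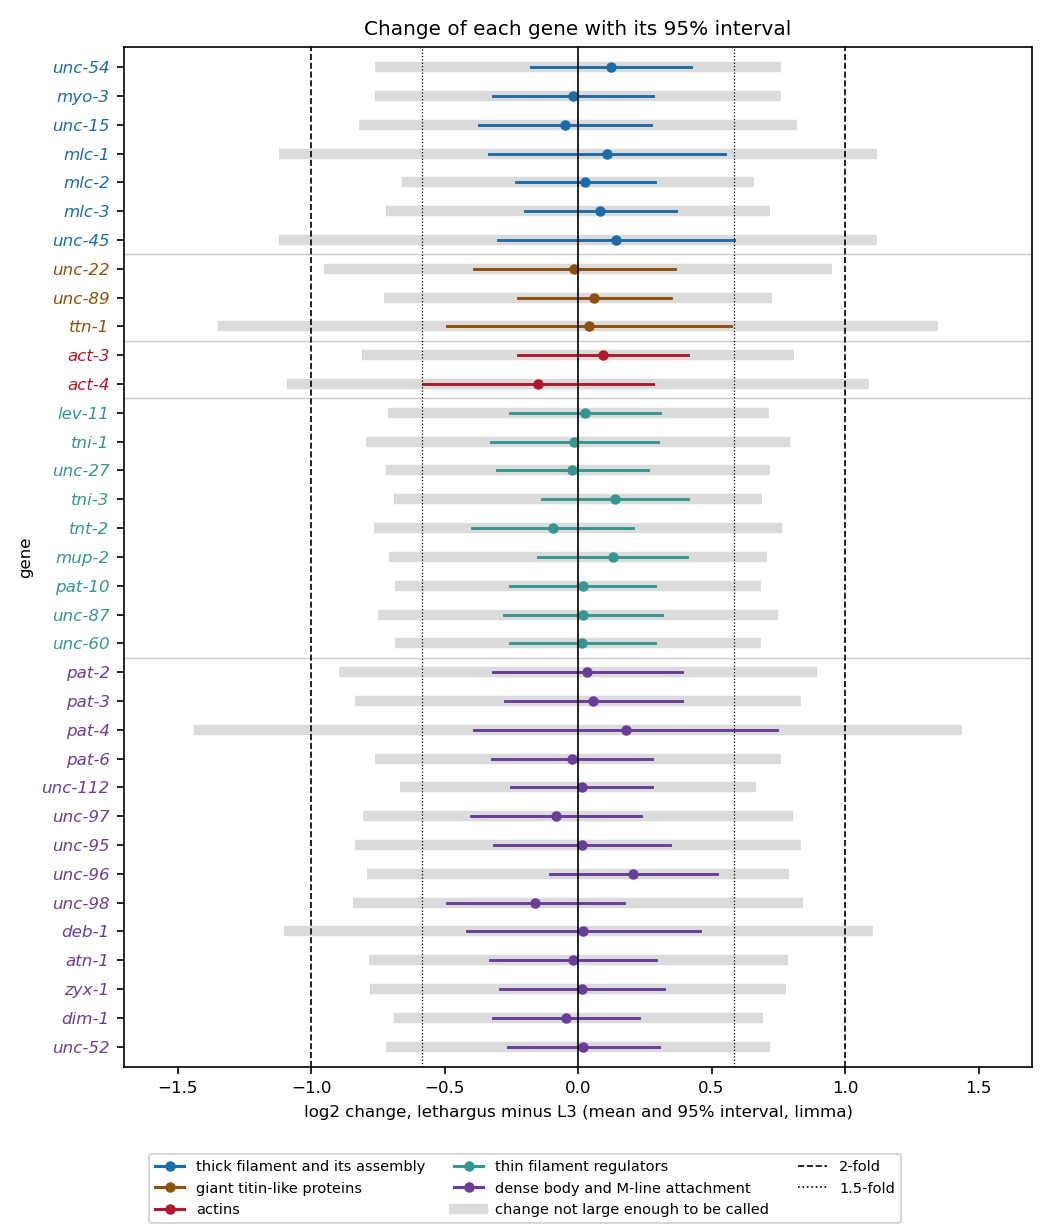
Log2 change, lethargus minus L3, of the 35 genes with the 95% interval from limma; dashed lines mark a 2-fold and dotted lines a 1.5-fold change. Grey bars span the changes too small to be called at an adjusted p of 0.05. All intervals hold 0 and lie within the dashed lines, and pat-4 alone crosses a dotted line.

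Genes for the attachment of the sarcomere to the membrane held the largest changes and the widest interval. pat-2 and pat-3 encode integrin alpha and beta, which span the membrane. pat-4 (integrin-linked kinase), pat-6 (parvin), unc-97 (PINCH) and unc-112 (kindlin) form the complex at the integrin tails. Changes of these 6 genes ran from -0.08 for unc-97 to 0.18 for pat-4. unc-112 read 11.70, 11.65 and 11.61 in L3 and 11.74, 11.64 and 11.62 in lethargus, a change of 0.01 (interval -0.25 to 0.28). pat-4 read 10.39, 10.73 and 10.55 in L3 and 10.36, 10.57 and 11.28 in lethargus, a change of 0.18 (interval -0.39 to 0.75). The pat-4 value of lethargus replicate 3 stood above all other arrays, and a second probe set of pat-4 had a change of 0.09. On the fold scale, the pat-4 interval ran from 0.764 to 1.68.

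Genes for the proteins further inside the cell, at the M-line and dense body, were not called either. unc-96 and unc-98, which encode proteins of the M-line, had the largest positive and negative changes, 0.21 (interval -0.10 to 0.52) and -0.16 (interval -0.49 to 0.17). Their adjusted p-values from limma were 0.737 and 0.857. A second probe set of unc-96 went the other way, with a change of -0.08 (interval -0.63 to 0.47). unc-95, a LIM domain protein, had 0.02. The dense body genes deb-1 (vinculin), atn-1 (alpha-actinin) and zyx-1 (zyxin) had 0.02, -0.02 and 0.01. dim-1, which encodes an immunoglobulin-repeat protein near the dense body, had -0.04. unc-52 encodes perlecan, the basement membrane protein that integrin is anchored to, and read 11.68, 11.68 and 11.65 in L3 and 11.56, 11.68 and 11.82 in lethargus, a change of 0.02 (interval -0.26 to 0.30). A dimmer probe set that carries 2 entries of the symbol unc-52 read 8.11, 8.56 and 8.63 in L3 and 8.37, 8.57 and 9.16 in lethargus, a change of 0.27 (interval -0.29 to 0.82).

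Dystrophin links the muscle cytoskeleton to the membrane outside the sarcomere. The probe set that names dys-1 in both entries read 9.93, 10.01 and 9.88 in L3 and 9.69, 10.02 and 10.06 in lethargus, a change of -0.02 (interval -0.35 to 0.31). Of 10 measured genes listed as its partners, 0 were called, 7 had a negative change and the median was -0.13. Changes ran from -0.18 for the dystroglycan gene dgn-1 to 0.18 for the dystrobrevin gene dyb-1. Whether each listed gene, dgn-1 included, acts with dystrophin in worm muscle was not tested. dyb-1 falls outside the rule for named genes and was chosen after its values were seen.

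How small a change these arrays could have shown differed between genes. With the spread of each gene, a change between 0.66 and 1.44 on the log2 scale, or 1.58- to 2.71-fold, would have been needed for a call. mlc-2 marks the lower end and pat-4 the upper end, and the median was 0.78. The interval therefore says more than the call: none of the 35 intervals, which are not adjusted for their number, reached a 2-fold change. When 2 one-sided tests against a 2-fold change were adjusted over all probe sets, a step added after the data were seen, 35 of 35 genes passed, against 90.6% of all probe sets and 96.9% of those at least as bright as the median gene of the list.

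**Figure D3:**
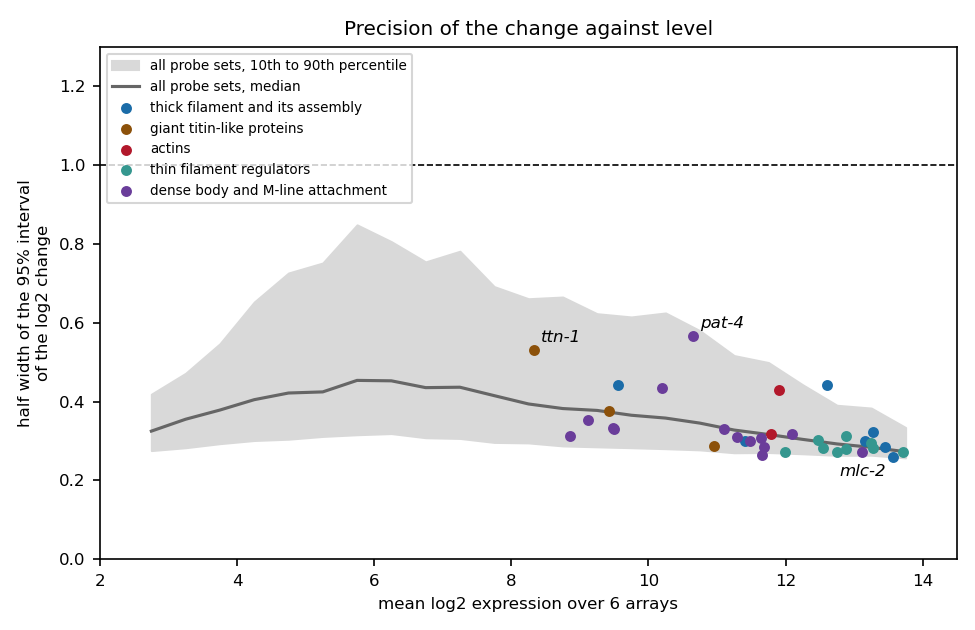
Distance from the log2 change to either end of its 95% interval against the mean log2 level over 6 arrays; coloured points are the 35 genes by role group, the grey line is the median and the grey band the 10th to 90th percentile of all probe sets at that level. Above a level of about 6 intervals narrow toward high levels, and most of the genes lie near the median of probe sets of their own level.

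Above a level of about 6, intervals over all probe sets narrowed with brightness: the median margin was 0.453 at a level of 6.25 and 0.272 at 13.75. At lower levels they widened with brightness, from 0.325 at 2.75. The mean level of the genes ran from 8.33 to 13.71, and none lay below the highest background control (5.73). Among the 898 probe sets at least as bright as the median gene of the list, 96.3% had an interval within 2-fold and 87.2% within 1.5-fold. Among these bright probe sets 0.223% were called higher and 0.223% lower, 5.9% had an unadjusted p under 0.05 and 13.9% did not overlap between stages. Those 898 are as bright as the brighter part of the list only. Among the 8239 probe sets at least as bright as the dimmest gene, 89% had an interval within 2-fold, 65.2% within 1.5-fold, 12.5% an unadjusted p under 0.05 and 17.4% no overlap. The corresponding counts for the sarcomere genes were 35, 34, 0 and 2 of 35, and whether their level accounts for this was not tested. The highest value of an array was between 14.43 and 14.54, and 8 genes had means above 13. Changes can be understated near the top of the scale, which was not tested.

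Probe sets other than the brightest were not called either but spread more. In all, 21 genes had several probe sets, and of the 39 further probe sets 0 were called by limma. Their changes ran from -0.43 to 0.47, and the interval lay within 2-fold for 38 of 39 (88.3% of all probe sets) and within 1.5-fold for 30 of 39 (59.6%). The exception was a ttn-1 probe set whose mean, 4.21, was no higher than some background controls, with a change of -0.43 (interval -1.07 to 0.22). An unadjusted p under 0.05 was reached by 3 of the 39, all higher in lethargus, against 10.6% of all probe sets in either direction. The stages did not overlap for 6 of the 39, against 14.4% of all probe sets in either direction. All 6 were higher in lethargus, as were 7.81% of all probe sets.

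These 3 probe sets, of unc-89, ttn-1 and lev-11, are named because of their values. That of unc-89 averaged 7.12 ± 0.15 in L3 and 7.53 ± 0.15 in lethargus (SD, n = 3 each), a change of 0.41 (adjusted p 0.327 from limma). The ttn-1 probe set had a change of 0.40 (adjusted p 0.429 from limma) and the lev-11 probe set one of 0.47 (adjusted p 0.382 from limma). For unc-89 and ttn-1 the stages did not overlap on these probe sets, whereas for lev-11 they did. The brightest probe sets of the same genes had changes of 0.06, 0.04 and 0.03. The annotation used here does not say which transcript forms each probe set reads, so a difference between forms of a gene was not tested.

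**Figure D4:**
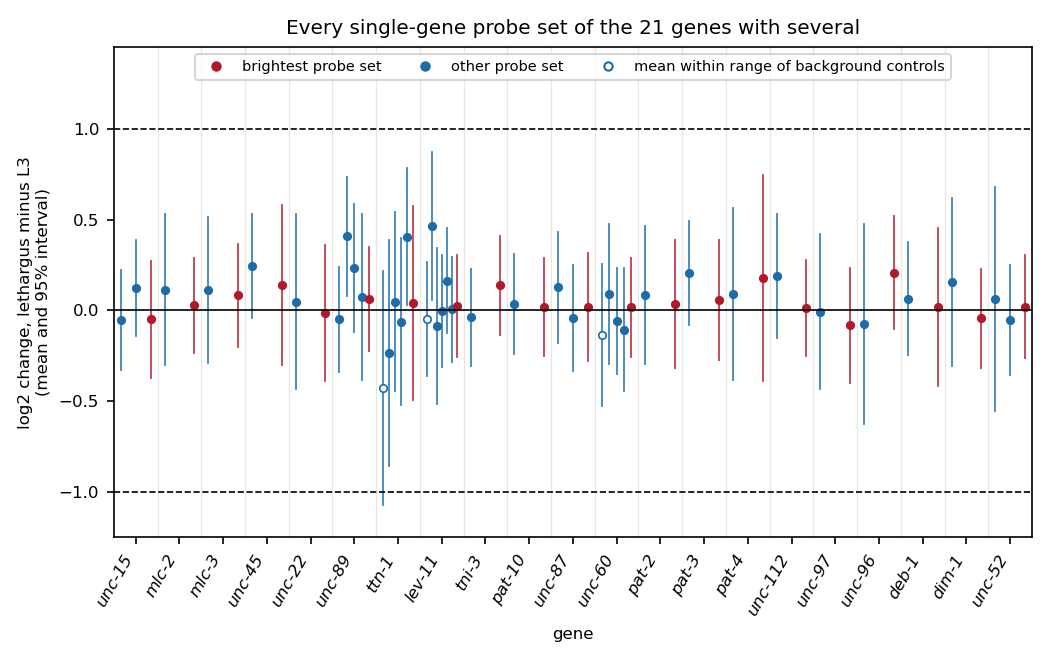
Log2 change, lethargus minus L3, with its 95% interval for every single-gene probe set of the 21 genes that have several, ordered by level within a gene; red marks the brightest and blue the others, and open circles have a mean below the highest background control. Dashed lines mark 2-fold. The 3 blue intervals that exclude 0 belong to unc-89, ttn-1 and lev-11.

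The spread between pools was larger in lethargus than in L3. The standard deviation over 3 arrays had a median of 0.067 in L3 and 0.153 in lethargus, and it was larger in lethargus for 30 of 35 genes. With every single-gene probe set of these genes counted, the contrast was weaker. The standard deviation was then larger in lethargus for 56 of 74, with medians of 0.109 in L3 and 0.163 in lethargus. Over all probe sets it was larger in lethargus for 54.7%, and among those at least as bright as the median gene for 53.8%. Lethargus replicate 1 was the highest of the 6 arrays for 19 genes, and lethargus replicate 3 for 11. Replicate 1 lay above the gene's own 6-array mean for 27 of 35 genes, by a median of 0.09, whereas over all probe sets its median was -0.04. The genes share these arrays, so their spreads are not independent of each other and this difference was not tested. Without lethargus replicate 1 the median change of the list was -0.02, and without lethargus replicate 3 it was 0.03.

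Over the whole array, L3 replicate 3 differed from its group. The first principal component of all probe sets (50.1% of the variance) put L3 replicates 1 and 2 at -47.7 and -40.9 and the lethargus arrays at 19.5 to 39.1, with L3 replicate 3 between them at 0.82. The sarcomere genes differed there from the mean of the other L3 arrays by -0.21 to 0.18, with a median of -0.02, the same as over all probe sets. Without regard to sign, the median difference was 0.089 for these genes, 0.175 over all probe sets and 0.102 among those at least as bright as the median gene. A list of 13 sperm markers had a median difference there of 0.91, although 9 of the 13 had a mean below the highest background control. Without L3 replicate 3 the calls over all probe sets grew to 573 higher and 563 lower, together 5.04% of them. Among the sarcomere genes 0 of 35 were called there, which lies near that share and shows little by itself.

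Values on these arrays are relative to the rest of the RNA of whole animals. Fewer muscle cells and less RNA per muscle cell cannot be told apart, and a change in the RNA of the whole animal would not be seen. Per the labels' protocols, the yield of a pool was 29.1 ± 15.9 ng in L3 and 19.7 ± 3.5 ng in lethargus (mean ± SD), and its part in these values was not tested. For 5 control transcripts the difference of 3' minus 5' probe sets is a guide to RNA quality. Between stages it had exact two-sided permutation p-values from 0.4 to 0.9, with 0.1 the smallest possible for 3 arrays a stage. These p-values compare stages and not single arrays. Lethargus replicate 3 had the highest difference of any array for actin (-0.006), catalase (3.31), Gapdh (-0.037) and ubiquitin (4.62). For gly14 an L3 array was higher (0.287 against 0.254). The part of RNA quality in the values of lethargus replicate 3 was not tested.

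Other genes of body wall muscle were likewise not called. The lists were chosen by function: further sarcomere and attachment genes, calcium and excitation, transmitter receptors, and muscle transcription factors. Of 27 further sarcomere and attachment genes, 0 were called and the median change was 0.04, with the small heat shock protein gene hsp-12.1 at the smallest p (0.45, adjusted p 0.293 from limma). Of 12 genes for excitation and calcium handling, 0 were called and the median was 0.04, with the calpain gene clp-1 at 0.26 (adjusted p 0.745 from limma). Of 18 genes for transmitter receptors and their clustering, 0 were called and the median was 0.04, with the receptor trafficking gene unc-50 at -0.34 (adjusted p 0.749 from limma).

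Among 10 muscle transcription factor genes 0 were called and the median was 0.03. hlh-1, the worm MyoD, and unc-120, the worm serum response factor, define body wall muscle and lay above the background controls on every array. Their changes were -0.04 (interval -0.42 to 0.35) and -0.07 (interval -0.35 to 0.22). fozi-1, which acts in the postembryonic mesoderm lineage, read 7.62, 7.58 and 7.88 in L3 and 8.44, 8.29 and 8.56 in lethargus. Its change of 0.74 (SE 0.14) did not overlap between stages but had an adjusted p of 0.0783 from limma. It was called without L3 replicate 3 (0.0235) and with array weights (0.0401), and its adjusted p ranged up to 0.327 over the other alternatives, reached without L3 replicate 2.

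The list of pharyngeal muscle genes had a higher median. Of its 13 measured genes 0 were called, while 12 had a positive change, 6 had an unadjusted p under 0.05 and 7 did not overlap between stages. The median change was 0.26. Not every gene of this list is confined to pharyngeal muscle, so these counts describe the list. Over all probe sets 53.6% had a positive change, 10.6% an unadjusted p under 0.05 and 14.4% no overlap. myo-5, a myosin heavy chain gene, had the smallest p of this list, with a change of 0.75 (interval 0.32 to 1.17, adjusted p 0.146 from limma). The interval lay within 1.5-fold for 3 of these 13 genes, against 34 of 35 for body wall muscle and 59.6% of all probe sets. The median margin of the interval was 0.389 for the pharyngeal list and 0.307 for the sarcomere genes, and its part in these counts was not tested. No test over a whole list was made, and the higher levels of pharyngeal markers as a group were known from an earlier look at these data.

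Body wall and pharynx use separate genes of the same protein families, which allows a direct comparison on each array. It was made for 4 families chosen after the data were seen, taking the pharyngeal minus the body wall change. For troponin T (tnt-4 against tnt-2 and mup-2) the difference was 0.51, and for troponin I (tni-4 against tni-1, unc-27 and tni-3) it was 0.38. In both families this difference was higher on each lethargus array than on any L3 array, and the exact two-sided permutation p was 0.1, the smallest that 3 against 3 arrays allow. For myosin heavy chain (myo-1 and myo-2 against unc-54 and myo-3) it was 0.32, and for troponin C (tnc-2 against pat-10) 0.23, with an exact permutation p of 0.2 each and overlapping arrays. Adjusted over the 4 families, each exact permutation p was 0.2, so the difference was not shown in any. The body wall changes were only 0.02 to 0.05, so these differences largely repeat the pharyngeal changes. Higher levels of pharyngeal markers were known when the families were chosen, so a positive sign in 4 of 4 adds no support.

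Further lists border on body wall muscle. Of 12 genes for actin and myosin outside muscle, 0 were called and the median change was 0.03, with the non-muscle light chain gene mlc-5 at -0.27 (adjusted p 0.559 from limma). Of 21 genes that attach muscle to the epidermis, 0 were called and the median was -0.01, with changes from -0.76 to 0.85. mua-3, a transmembrane protein of the epidermal attachment, read 11.97, 11.86 and 11.74 in L3 and 10.89, 11.01 and 11.38 in lethargus. Its change of -0.76 had an adjusted p of 0.0997 from limma, and it was called with array weights (0.0402) and with a variance trend and robust fitting (0.0468). With probe sets that can match related genes left out, mua-3 was read by another probe set with a change of 0.35 (adjusted p 0.932 from limma). Intervals lay within 1.5-fold for 10 of these 21 genes, against 59.6% of all probe sets.

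**Figure D5:**
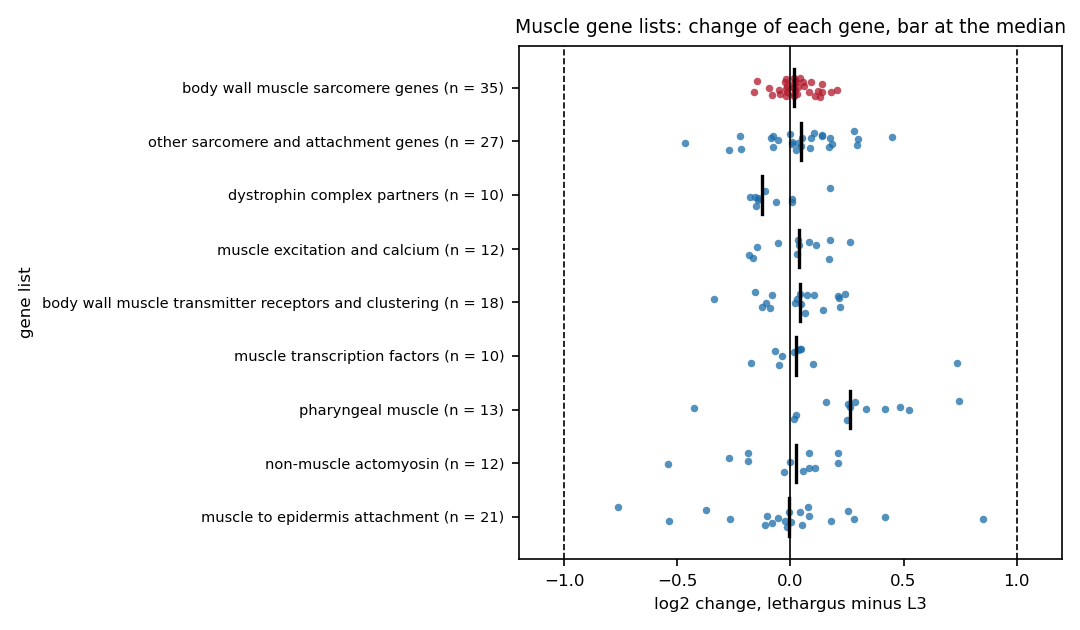
Log2 change, lethargus minus L3, of each measured gene of the sarcomere list (red) and of 8 further lists (blue), with a black bar at the median; points are spread vertically for legibility and dashed lines mark 2-fold. The sarcomere genes lie between -0.16 and 0.21, and the pharyngeal muscle list has a median of 0.26.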

How the data were processed

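Expression was measured on Affymetrix C. elegans Genome Arrays in 3 samples of each stage. Per the labels' protocols, 4 samples a stage were collected, 1 of each was set aside for RNA quality, and cDNA was amplified with the Nugen Ovation system before labelling. The deposited values are log2 expression made by the authors with RMA, per the submitters' processing notes. Its version is not given in the sources used here.

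Of 22625 probe sets, 77 controls were left out and 22548 tested in R 4.3.3 by limma 3.58.1, with stage as its single term and two-sided p-values from eBayes. Intervals come from the same fit at 95% confidence, without adjustment. The design text names R/maanova, which was not run. Genes were named only from probe sets with 1 gene (20766), and the brightest stood for a gene. All 35 genes matched RefSeq (WBcel235) by identifier. In 24 of them that probe set is marked as able to match related genes. The 27 probe sets for Bacillus subtilis transcripts (2.42 to 5.73) guided background. With 3 arrays a stage, precision is limited by their number. The fit was tested on simulated data.

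The genes, lists and tests were chosen with earlier results of these data known. All genes of the sarcomere list are named. Those shown on every array had the narrowest or widest interval of their role group, and any others shown so were chosen after their values were seen. Of other lists, the gene with the smallest p is named where none was called, and pharyngeal genes of shared families, hlh-1 and unc-120 in addition. Marker lists of intestine (11 genes), neurons (12), germline (12), glia (7) and sperm (13) had 0 calls, and of 11 epidermis markers 1, rol-6, fell.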

Additional observations from a re-analysis of the deposited data

How the results depend on the processing

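The counts of 0 sarcomere genes called higher and 0 called lower held under all 14 alternatives: a second quantile normalization, a common median, dim probe sets left out, the mean of a gene's probe sets, marked probe sets left out, a variance trend with robust fitting, array weights, the replicate block and each of 6 arrays left out. Under these alternatives 0.262% to 5.04% of all probe sets or genes tested were called, so counts of 0 show little by themselves. All measured genes kept an interval within 2-fold under each alternative, against 84.2% to 88.8% of all tested. With marked probe sets left out the count was 19 because 19 genes were left. The median change ran from -0.02 to 0.06. Without lethargus replicate 1 the extremes widened to -0.31 (act-4) and 0.37 (pat-4), and the median of the list turned negative. The count within 1.5-fold fell from 34 to 27 without L3 replicate 2 or lethargus replicate 2. Of 474 single-gene values under alternatives, 0 became a call. Of the same 474, 467 moved by less than the SD between replicates, which shows little by itself. Leaving out dim probe sets, the variance trend with robust fitting and the replicate block left the change of each gene as it was. Leaving out a single array can hardly move a change by as much as that SD. The variance trend with robust fitting narrowed the median margin of the 95% interval, on either side of the change, from 0.307 to 0.246.

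Over all probe sets the counts moved more. Array weights gave 262 higher and 231 lower, and the variance trend with robust fitting gave 77 lower. Leaving out 1 array gave 75 to 573 higher and 0 to 563 lower, with both upper ends reached without L3 replicate 3. Without any other single array at most 90 were higher and 1 lower. The replicate block gave 56 higher and 3 lower, with 0 sarcomere genes called. Stages share replicate numbers. Same-numbered arrays correlated in their deviations from the stage mean with r = 0.264, -0.244 and -0.293 across probe sets. Differently numbered arrays had r from -0.418 to 0.457. With so few arrays these values cannot decide whether same-numbered pools were grown or handled together. Why the counts moved was not tested. The pharyngeal minus body wall differences ran from 0.116 to 0.613 over the alternatives, positive in 4 of 4 families. These families were chosen with the higher levels of pharyngeal markers known, so the signs add no support.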
